A study of Mus musculus with 6 samples.

Results

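Natural killer cells were taken from the lungs of 6 male C57BL/6 mice of 21 months. They were defined by transcript counts in single cells: a barcode with at least 500 genes, at least 1000 UMIs (unique molecular identifiers, each standing for 1 captured RNA molecule) and at most 15% mitochondrial UMIs had to hold at least 1 UMI of Ncr1 and at least 1 of Klrb1c. It also had to hold no UMI of Cd3e or Cd3g (T cell receptor complex), Cd79a (B cell receptor complex) or Cdh5 (endothelial cadherin). This gate kept 939 of 88616 barcodes that passed the quality limits, or 1.06%. Ncr1 encodes NKp46 and Klrb1c encodes NK1.1, both receptors on the surface of natural killer (NK) cells. The gate used these 6 genes, so their levels describe the gate and were not tested.

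NK cells are innate lymphocytes that kill infected, stressed or transformed cells without a rearranged antigen receptor. Activating receptors such as NKG2D (Klrk1) and NKp46 signal through adaptor proteins such as DAP12 (Tyrobp) and the Fc receptor gamma chain (Fcer1g), and inhibitory receptors, in mice chiefly the Ly49 family (Klra genes) and the NKG2A-CD94 pair (Klrc1, Klrd1), hold the cell back when they meet MHC class I. Killing runs through granules that hold perforin and granzymes. Mouse NK cells mature from cells that carry CD27 to cells that carry CD11b (Itgam), and mature cells gain S1pr5, Cx3cr1 and Zeb2; lung NK cells are known to be mostly mature cells of the blood pool. A related group, the type 1 innate lymphoid cells (ILC1), shares NKp46 and NK1.1 and is known for CD49a (Itga1), Cxcr6 and a low level of Eomes.

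In 3 libraries, labelled p16-DTR, the mice were p16-CreERT2/R26-LSL-DTR, and Cre made under p16 control (Cdkn2a) can switch on a diphtheria toxin receptor from the Rosa26 locus. The other 3, the controls, were from p16-CreERT2 mice, which carry the Cre and no receptor allele. All 6 mice received tamoxifen (TAM) for 5 days, diphtheria toxin (DT) for 5 days 2 weeks later, and 2 weeks of recovery. Each library held 1 mouse, and mixed 20000 sorted CD45-negative with 9000 sorted CD45-positive lung cells.

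The gate found 171, 154 and 225 NK cells in the p16-DTR-labelled libraries and 101, 61 and 227 in the controls, with 1057011 to 3995887 summed NK UMIs per library. No NK barcode was shared between libraries. The median NK cell held 13193, 12868 and 13787 UMIs in the p16-DTR-labelled libraries and 14549, 15997 and 15837 in the controls, so the cells of every control were deeper than those of every p16-DTR-labelled library. Cdkn2a, the gene whose promoter drives the Cre, was compared between the labels. Over all quality-passing barcodes it stood at 7.10, 8.57 and 7.31 counts per 1000000 (CPM) in the p16-DTR-labelled libraries and at 1.15, 2.60 and 2.84 CPM in the controls. A loss of cells that make Cdkn2a would, taken alone, lower this level. Why it was higher was not tested, and the level cannot tell whether the labels are right. Every direction here is one between libraries as labelled. Hereafter CPM is a gene's UMIs per 1000000 UMIs of the summed NK cells of 1 library.

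Markers of other cell types inside the gate were uneven. The summed level of 4 neutrophil markers (S100a8, S100a9, Csf3r, Retnlg) was 606 to 638 CPM in the p16-DTR-labelled libraries and 23.7 to 356 CPM in the controls. All 8 macrophage and monocyte markers summed to 307 to 518 CPM against 40.3 to 217 CPM, and 4 fibroblast markers to 65.6 to 143 CPM against 88.1 to 533 CPM. In several libraries a pair of cells held most of the S100a8 signal: the 2 cells with the most S100a8 held 88.9%, 95.7% and 95.5% of S100a8 UMIs in the p16-DTR-labelled libraries and 17.6%, 50.0% and 93.7% in the controls. Of 9 T cell markers outside the gate, Cd4 was at 0 in every library, and their sum was 494 to 709 CPM against 594 to 722 CPM. Pooled over libraries, Cd3d stood at 5.08 CPM and Trac at 13.2 CPM. Most of the T cell sum thus lay in other members, of which Trbc1 had the highest mean CPM. Which cells gave these UMIs was not tested. Cells with at least 2 UMIs of at least 2 markers of other cell types numbered 363 and made up 28.7%, 27.9% and 37.8% of NK cells in the p16-DTR-labelled libraries and 31.7%, 49.2% and 54.6% in the controls. Results are given without these cells where that changes a call. Beyond that, the part of such markers in the results was not tested. T cell, type 2 innate lymphoid and erythroid markers were not counted in this rule. The cells kept may still hold single UMIs of other cells' markers, or many UMIs of 1 marker. Endothelial markers summed to 87.8 to 102.7 CPM against 112.6 to 119 CPM, and erythroid ones to at most 1.00 CPM.

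T-bet (Tbx21) and Eomes, the T-box factors that direct NK cell development, are known to bind the core TCACAC. Promoters are shown with this core in capitals, as TCACAC or its reverse complement GTGTGA: that of the gate gene Ncr1 (chr7:4337465-4337764, plus strand), that of Gzmb of the mature list (chr14:56262285-56262584, minus strand) and that of Emb of the immature list (chr13:117220323-117220622, plus strand). Each runs 5′ to 3′ on the gene's strand from 250 bases before to 50 bases after the start, from RefSeq on GRCm38.p6.
Ncr1: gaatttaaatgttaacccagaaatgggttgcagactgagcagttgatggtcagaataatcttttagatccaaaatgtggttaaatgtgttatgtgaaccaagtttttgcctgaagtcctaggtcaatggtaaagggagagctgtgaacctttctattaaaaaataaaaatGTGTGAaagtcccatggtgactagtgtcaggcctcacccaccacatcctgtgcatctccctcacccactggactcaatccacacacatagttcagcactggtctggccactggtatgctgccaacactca
Gzmb: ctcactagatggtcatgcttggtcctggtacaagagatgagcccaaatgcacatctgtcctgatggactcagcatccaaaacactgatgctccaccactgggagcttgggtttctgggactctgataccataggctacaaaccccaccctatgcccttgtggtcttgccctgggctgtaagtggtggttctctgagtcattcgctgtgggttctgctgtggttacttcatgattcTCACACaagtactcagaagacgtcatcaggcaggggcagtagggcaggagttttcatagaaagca
Emb: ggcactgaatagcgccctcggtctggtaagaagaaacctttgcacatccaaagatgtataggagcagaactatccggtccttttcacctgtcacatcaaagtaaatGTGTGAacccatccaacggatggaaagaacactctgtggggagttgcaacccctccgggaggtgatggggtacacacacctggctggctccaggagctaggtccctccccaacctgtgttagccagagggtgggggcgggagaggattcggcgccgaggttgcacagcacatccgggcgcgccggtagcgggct
The core begins 80 bases before the start in Ncr1, 15 in Gzmb and 144 in Emb. It occurs on either strand in 4760 of 32851 promoters of this length (14.5%). Of the stage genes described below, 1 of 11 mature genes with a promoter in the table holds it (Gzmb), and 4 of 9 immature genes do (Cxcr3, Emb, Il7r, Xcl1). A match of letters describes the window only, and is not a site shown to be bound.

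The gated cells carried the NK programme. Gzma (granzyme A) averaged 6946 ± 1001 CPM (SD, n = 6 libraries), against 149 CPM in CD8 T cells, 1.05 CPM in B cells and 0.956 CPM in neutrophils gated in the same libraries. Prf1 (perforin) averaged 1377 ± 106 CPM in NK cells and 109 CPM in CD8 T cells. Ncr1 and Klrb1c themselves averaged 703 ± 63.2 and 680.4 ± 127 CPM. These comparisons of cell types are descriptions, because the gates chose the cells on this contrast. Genes that the gate did not use followed the same order. Klrk1 averaged 972 CPM in NK cells and 204 CPM in CD8 T cells, and Klre1, a partner chain of NK lectin receptors, 934 against 66.4 CPM. Cma1, a chymase gene found in mature mouse NK cells, averaged 221 CPM in NK cells and had no UMI in CD8 T cells. Irf8, a factor of NK and myeloid development, averaged 1249 CPM against 22.3 CPM in CD8 T cells and 253 CPM in B cells. Other genes were shared. Ccl5, a chemokine of cytotoxic cells, averaged 9442 CPM in NK cells and 5214 CPM in CD8 T cells. Tyrobp was higher in neutrophils (3113 CPM) than in NK cells (1447 CPM), as was Fcer1g, the Fc receptor gamma chain (1560.1 against 1297 CPM). Bcl2, the survival gene, was higher in CD8 T cells (1142 CPM) than in NK cells (801 CPM). Eomes averaged 336 CPM and Tbx21 354 CPM in NK cells, against 174 and 77.2 CPM in CD8 T cells.

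**Figure D1:**
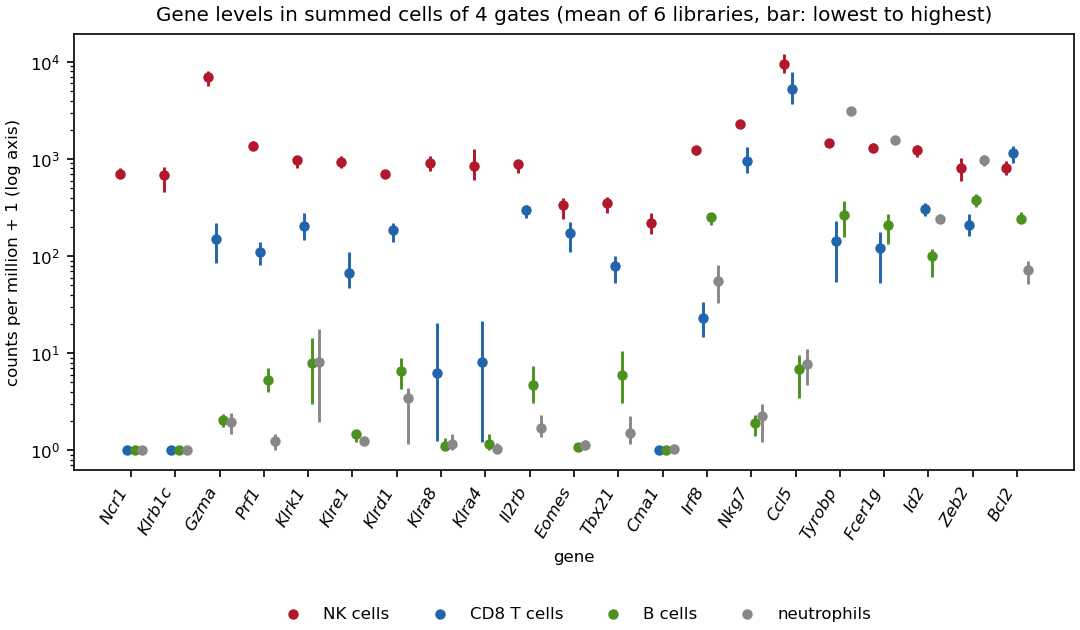
Levels of 21 genes in summed NK, CD8 T, B and neutrophil cells, as CPM + 1 on a log axis, with points at the mean of 6 libraries and bars from the lowest to the highest library. Gzma, Prf1, Cma1 and the Ly49 genes Klra8 and Klra4 sit highest in NK cells, while Tyrobp and Fcer1g are higher in neutrophils and Bcl2 in CD8 T cells.

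At the edge of the gate, barcodes with Ncr1 and no Klrb1c (106) had 171 CPM of Gzma when pooled, and those with Klrb1c and no Ncr1 (109) had 195 CPM. Gated cells had 6955 CPM, with 4318 CPM in the 48 cells that held a gate gene at exactly 1 UMI and 7027 CPM in the 891 cells with at least 2 UMIs of both. Of 1189 barcodes with both receptors, 102 were left out for Cd3e or Cd3g (3571 CPM of Gzma) and 148 for Cd79a or Cdh5 (4575 CPM).

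NK cells were next described by stage. Cells with a UMI of Itgam and none of Cd27 numbered 493 (52.5%), cells with Cd27 and no Itgam 113 (12.03%), cells with both 182 and cells with neither 151. These numbers come from unthinned cells and move with depth, which was higher in every control. By library, Itgam-only cells made up 55.6% to 56.0% of NK cells in the p16-DTR-labelled libraries and 43.6% to 54.1% in the controls. Cells with neither made up 16.2% to 22.2% against 3.28% to 13.9%. Cells with both made up 11.1% to 16.4% against 18.8% to 30.4%, and Cd27-only cells 9.94% to 12.3% against 13.2% to 14.8%. None of the 4 shares overlapped between groups (exact two-sided permutation p 0.1 in each, the smallest that 3 against 3 can give), and the part of depth in them was not tested. Between the Itgam-only and Cd27-only cells, all 12 mature genes outside the split were higher in Itgam-only cells in each of 6 libraries, and 8 of 11 immature genes were higher in Cd27-only cells in each. Over 10235 genes, 7.48% were higher in Itgam-only cells in each library and 6.59% in Cd27-only cells. Control replicate 2 gave only 9 Cd27-only cells. The mature end was marked by effector and exit genes. Cma1 averaged 336 ± 47.9 CPM in Itgam-only and 23.3 ± 25.6 CPM in Cd27-only cells (SD, n = 6). Cx3cr1, the fractalkine receptor of blood NK cells, averaged 126 against 8.29 CPM, and S1pr5, which directs exit from tissue into blood, 148 against 22.5 CPM. Gzma averaged 9302 against 2483 CPM, and 10 of 19 granule genes were higher in Itgam-only cells in each library. Cd27-only cells held the other pole. Emb (embigin, a surface glycoprotein) averaged 1572 ± 425 CPM there and 127 ± 85.2 CPM in Itgam-only cells. Tcf7, the TCF-1 factor of early NK cells, averaged 232 against 22.8 CPM. Il7r, the IL-7 receptor, averaged 230.1 against 21.5 CPM, and the chemokine Xcl1 739 against 171 CPM. Il7r is also on the list of ILC1 and tissue residence genes. Of 11 genes of that list, 4 were higher in Cd27-only cells in each library, against 6.59% of all genes. Aff3, a member of a family of nuclear transcription elongation proteins, followed this pole too, at 562 ± 210.1 against 98.3 ± 31.9 CPM.

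Itga1, the CD49a chain of ILC1 and tissue-resident NK cells, was detected in 217 cells (23.1%). Of 11 other ILC1 and residence genes, 4 were higher in Itga1-detected cells in each of 6 libraries, against 1.77% of all genes. Cxcr6, a chemokine receptor of resident lymphocytes, averaged 40.7 ± 27.9 CPM in them and 4.69 ± 4.63 CPM in the rest. Inpp4b, a phosphatase gene of the ILC1 programme, averaged 192 against 44.0 CPM, and Il7r 144 against 56.8 CPM. Ly49 receptors went the other way: 7 of 9 were lower in Itga1-detected cells in each library, against 2.81% of all genes. Klra8 (Ly49H, an activating member) averaged 422 ± 222 CPM in them and 1073 ± 101 CPM in the rest, and Klra4 (Ly49D, also activating) 402 against 1007 CPM. Eomes averaged 190.5 against 389 CPM. The split used 1 gene, and a cell with no Itga1 UMI may still express it. An Itga1 UMI also occurred in 10.4% and 12.2% of neutrophils and in 9.12% and 8.74% of B cells (p16-DTR-labelled and control), against 27.3% and 17.2% of NK cells. After thinning to 3000 UMIs the shares were 2.18% and 3.395% in neutrophils, 1.68% and 2.17% in B cells, and 13.7% and 8.36% in NK cells. The part of such background UMIs in the 217 cells was not tested.

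**Figure D2:**
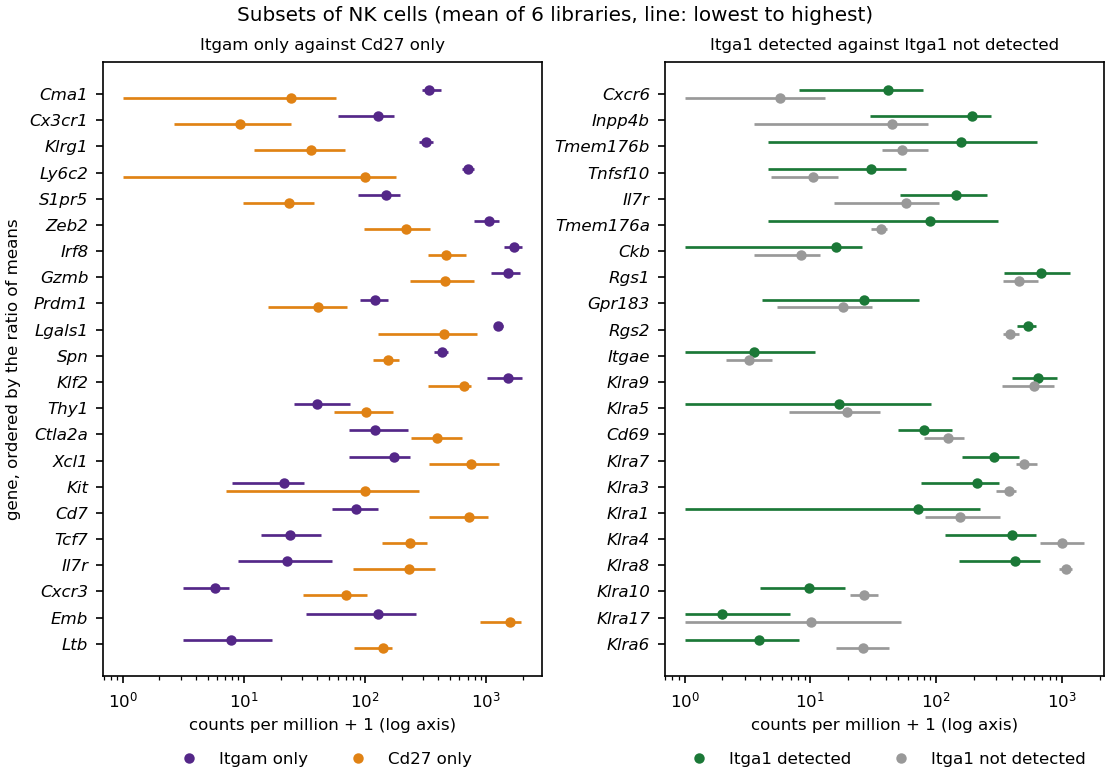
Levels of stage genes (not every list member is plotted) in cells with Itgam only or Cd27 only (left) and of ILC1 and Ly49 genes in cells with or without an Itga1 UMI (right), as CPM + 1 on a log axis, with points at the mean of 6 libraries and lines from the lowest to the highest. Cma1, Cx3cr1 and Ly6c2 lie toward Itgam-only cells and Emb, Tcf7 and Cd7 toward Cd27-only cells. Cxcr6 lies toward Itga1-detected cells and the Ly49 genes away from them.

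The main comparison asked which genes differed in NK cells between the p16-DTR-labelled and control libraries. Of 10238 genes tested, 1 passed at an adjusted p of 0.05 (0.00977%): Aff3 fell and no gene rose (edgeR quasi-likelihood test, Benjamini-Hochberg adjustment over all genes). DESeq2 called 73 genes (0.713%), 23 higher and 50 lower. An unadjusted edgeR p under 0.05 was reached by 878 genes (8.58%). With 3 mice a group, the values of 859 genes (8.39%) were higher in every p16-DTR-labelled library than in every control, and those of 673 (6.57%) were lower; 49.1% of log2 fold changes were above 0. Aff3 (ENSMUSG00000037138, chromosome 1, 38177326 to 38664955 in GRCm38) was at 177, 173 and 157 CPM in the p16-DTR-labelled libraries and at 351, 302 and 308 CPM in the controls. The groups do not overlap, and their means were 169 ± 10.2 and 320.5 ± 26.9 CPM (SD, n = 3; edgeR log2 fold change -0.95, SE 0.09, adjusted p 0.0490). Within Itgam-only cells it averaged 70.6 ± 10.2 against 126 ± 11.9 CPM, and within Cd27-only cells 421 ± 161 against 703 ± 158 CPM. The call was lost without any 1 of the 6 libraries, with adjusted p from 0.0843 (without control replicate 1) to 0.34 (without p16-DTR replicate 3) and a log2 fold change of -0.98 to -0.88. It was kept in 5 of 18 alternatives in all. Without the 363 cells that held markers of other cell types, 32 genes passed, 10 higher and 22 lower. They include Gzmb, S1pr5, Fkbp5 and Inpp4b on the higher side and Emb, Ctla2a, Bach2, Ccr2 and Socs3 on the lower side. The higher side also held Hist1h1b (log2 fold change 2.57) and Tcrg-C4, a T cell receptor gamma gene (2.42, edgeR adjusted p 0.0485). T cell markers were not part of the rule, and the part of T cells in these calls was not tested. This fit tested 8652 genes, with 31 NK cells in control replicate 2. With Cd3d and Trac also at 0, 30 genes passed, 18 higher and 12 lower. The higher side held genes known from monocytes, macrophages and other myeloid cells, among them Lyz2, Cd14, Cybb, C5ar1 and Mpeg1 (log2 fold changes 3.205, 3.41, 3.76, 4.30 and 3.66), picked after their values were seen, beside Cxcr6, S1pr5 and Ly6c2. Macrophage and monocyte markers read higher in the full gate too (307 to 518 CPM against 40.3 to 217 CPM), and their part in these calls was not tested. With no filter on low counts 61 passed, 22 higher and 39 lower. The stage shares above, from unthinned cells, did not overlap between the groups either. In summed cells, a change of level in each cell and a change in the mix of cells cannot be told apart.

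Most genes of the mature stage read higher in the p16-DTR-labelled libraries. Of 13 mature genes tested, 12 had a log2 fold change above 0 with a median of 0.30, and 7 were higher in every p16-DTR-labelled library than in every control; over all genes the shares were 49.1% and 8.39% and the median was -0.0058. None passed in edgeR, and DESeq2 called Zeb2, S1pr5, Ly6c2 and Gzmb. Zeb2 stood at 905, 962 and 1027 CPM in the p16-DTR-labelled libraries and at 668, 598 and 649.9 CPM in the controls. Zeb2 is the repressor that drives late NK maturation; its groups do not overlap (log2 fold change 0.57, SE 0.07, adjusted p 0.0897). S1pr5 stood at 151, 122 and 149 CPM in the p16-DTR-labelled libraries and at 75.5, 92.7 and 65.8 CPM in the controls. Every p16-DTR-labelled library was above every control (log2 fold change 0.85, SE 0.16, adjusted p 0.207), and S1pr5 passed edgeR without the cells holding markers of other cell types. Ly6c2 stood at 604, 567 and 625 CPM in the p16-DTR-labelled libraries and at 464, 412 and 377 CPM in the controls, again without overlap. Cx3cr1 was at 113, 78.8 and 140.1 against 31.2, 70.0 and 66.6 CPM, also without overlap. Other mature genes did not separate. Itgam itself was at 227, 192 and 156 CPM against 191, 205 and 169 CPM, with a log2 fold change of 0.01. Cma1 (0.12), Klrg1, an inhibitory receptor of terminal cells (0.20), and Irf8 (-0.09) also overlapped between groups.

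Of 12 immature genes tested, 10 had a log2 fold change below 0, the median was -0.38, and 6 were lower in every p16-DTR-labelled library than in every control, against 6.57% of all genes. Emb stood at 379, 539 and 281 CPM in the p16-DTR-labelled libraries and at 696, 758 and 913 CPM in the controls. The groups do not overlap (log2 fold change -1.01, SE 0.22, adjusted p 0.232). Without the cells holding markers of other cell types Emb passed (log2 fold change -1.29, adjusted p 0.000298). Ctla2a stood at 139.6, 156 and 107 CPM in the p16-DTR-labelled libraries and at 202, 355 and 300.1 CPM in the controls. Ctla2a encodes a protease inhibitor, and its groups do not overlap (log2 fold change -1.12, SE 0.22, adjusted p 0.209). DESeq2 called it (adjusted p 5.04e-05), as did edgeR without the cells holding markers of other cell types. Cd27 was at 39.4, 61.9 and 56.3 CPM against 77.4, 77.6 and 98.4 CPM, and Tcf7 at 55.0, 82.1 and 67.1 CPM against 89.1, 104 and 109 CPM, both without overlap. Thy1, a surface glycoprotein of young lymphocytes, was at 41.5, 52.5 and 61.3 CPM against 73.5, 62.4 and 88.1 CPM, also without overlap. Il7r (log2 fold change 0.21, with overlap) and Cd7 read the other way. Cd7, a surface protein of young lymphoid cells, was at 261, 268 and 260.0 CPM in the p16-DTR-labelled libraries and 164, 181 and 244 CPM in the controls, with every value higher. In Itgam-only cells, a subset chosen after the data were seen, Emb averaged 65.6 ± 40.6 CPM against 189 ± 71.5 CPM, and Zeb2 1216 ± 83.0 against 875 ± 117 CPM. In that subset the medians of the mature and immature lists were 0.20 and -0.78, with 9 immature genes tested. There 10 of 13 mature genes had a log2 fold change above 0, and 0 genes passed in edgeR. The part of depth in that split was not tested. Over 18 other settings, that subset included, the medians ranged from 0.196 to 0.457 and from -0.776 to -0.247.

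**Figure D3:**
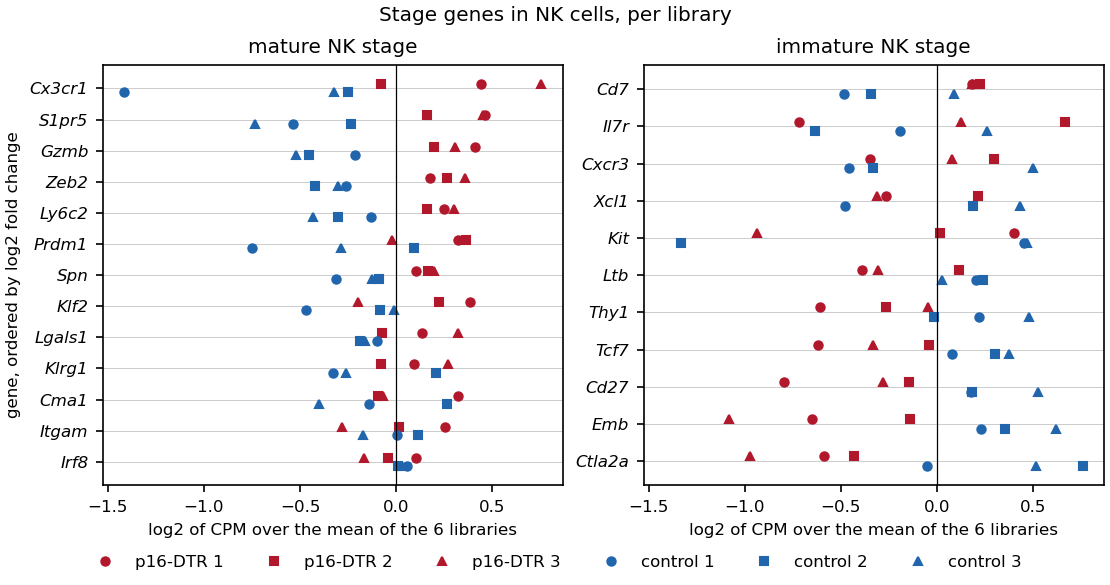
Mature and immature stage genes in NK cells (not every list member is plotted): log2 of each library's CPM over the mean of the 6 libraries, with genes ordered by log2 fold change, red for p16-DTR-labelled and blue for control libraries, and marker shapes for replicates. For S1pr5, Zeb2 and Gzmb all red points lie right of all blue ones, and for Emb and Ctla2a all lie left.

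Among granule genes the smallest p was that of Gzmb (granzyme B, the protease that cuts caspases and Bid in target cells). Gzmb stood at 1459.5, 1258 and 1356 CPM in the p16-DTR-labelled libraries and at 948, 803 and 766 CPM in the controls. Every p16-DTR-labelled library was above every control (log2 fold change 0.67, SE 0.10, adjusted p 0.106), and Gzmb passed without the cells holding markers of other cell types (log2 fold change 0.62, adjusted p 0.0177). In Itgam-only cells it averaged 1747 ± 167 CPM against 1270.1 ± 212 CPM. Gzma was at 7938, 7157 and 8118 CPM against 5963, 6832 and 5669 CPM, higher in every p16-DTR-labelled library, with a log2 fold change of 0.30 (SE 0.11, edgeR adjusted p 0.470). Prf1, at 1467, 1546 and 1315 CPM against 1324, 1339.6 and 1271 CPM, overlapped (0.11). Of 19 granule and death-ligand genes tested, 14 had a log2 fold change above 0 with a median of 0.11, against 49.1% of all genes. Without overlap, 6 were higher and 1 lower, against 8.39% and 6.57% of all genes. None passed in edgeR, and DESeq2 called Gzmb (adjusted p 1.51e-08). Ctsc, the cathepsin that activates granzymes, was at 152, 154 and 198 CPM against 108, 117 and 122 CPM, and Fasl, the ligand of the death receptor Fas, at 449.8, 428 and 413 CPM against 366, 383 and 375 CPM, both without overlap. Gzmm, the lower one, was at 10.7, 10.3 and 9.97 CPM against 16.9, 12.3 and 14.8 CPM. Nkg7, a granule membrane protein, was at 2522, 2317 and 2274 CPM against 2173, 2339.6 and 2229 CPM and overlapped.

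No receptor that starts or stops killing passed in edgeR, and DESeq2 called 1, Klra9. Of 20 activating receptor and adaptor genes, 13 had a log2 fold change above 0 (median 0.14), and of 10 inhibitory genes tested, 8 did (median 0.23). Klrk1 was at 959, 1024 and 1015 CPM against 815, 1078 and 943 CPM and Tyrobp at 1510.4, 1546 and 1333 CPM against 1374, 1483 and 1438 CPM, both overlapping. Klrc1 and Klrc2 read above every control in every p16-DTR-labelled library. Klrc1 stood at 376, 396 and 403 CPM in the p16-DTR-labelled libraries and at 295, 213 and 342 CPM in the controls (0.43). Klrc2 (NKG2C, the activating chain) was at 501, 472 and 483 CPM against 394, 233 and 381 CPM (0.50). Their sequences are close, so counting could split reads between them. Their shared partner CD94 (Klrd1) had a log2 fold change of 0.13. Ly49 genes, many of which vary between single cells, read mostly lower: 8 of 9 tested had a log2 fold change below 0 (median -0.31), where 49.1% of all genes were above 0, and 1 was lower without overlap, against 6.57% of all genes. Klra8 was at 963, 943 and 745 CPM against 1079, 793 and 876 CPM, and Klra4 at 979, 777 and 643 CPM against 795, 1266 and 613 CPM. Klra9 (Ly49I) was the 1 above 0, at 603, 826 and 796 CPM against 627, 430.5 and 431 CPM, with overlap (edgeR log2 fold change 0.56, SE 0.17, adjusted p 0.415; DESeq2 adjusted p 0.0324). Klra17 stood at 37.8 CPM in control replicate 2 and at no more than 2.05 CPM in the other 5 libraries. Ly49 genes are near-identical copies, so single members are uncertain.

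Among transcription factors, 6 of 15 tested had a log2 fold change above 0, and 4 were higher and 4 lower in every p16-DTR-labelled library than in every control, against 8.39% and 6.57% of all genes; none passed in edgeR. The T-box pair read in opposite directions. Tbx21 stood at 406, 407 and 391 CPM in the p16-DTR-labelled libraries and at 279.8, 342 and 298 CPM in the controls (0.37), without overlap. Eomes stood at 329, 328 and 239 CPM in the p16-DTR-labelled libraries and at 396, 347 and 377 CPM in the controls (-0.35), also without overlap. Bach2, a repressor of effector genes, was at 622, 702 and 514 CPM against 925, 812 and 920.4 CPM (log2 fold change -0.56, SE 0.12, adjusted p 0.230), without overlap, and was called by DESeq2 (adjusted p 0.00166) and by edgeR without the cells holding markers of other cell types (adjusted p 0.0485). Id2, the inhibitor that holds innate lymphoid identity, was at 1326, 1356 and 1409.9 CPM against 1051, 1280.0 and 1069 CPM. Zfp683 (Hobit, a residence factor) was under the low-count filter, at 3.28, 1.88 and 6.45 CPM against 0, 0 and 0.501 CPM. Genes outside the lists followed Aff3 by p. Kdm2b, a histone demethylase, was at 185, 189 and 197 CPM against 298, 272 and 295 CPM (log2 fold change -0.62, edgeR adjusted p 0.0789). Nfkb1, a subunit of NF-κB, was at 506, 486 and 476 CPM against 802, 681 and 815 CPM, and Plxnc1, a semaphorin receptor, at 57.5, 59.1 and 47.8 CPM against 146, 196 and 128 CPM. None overlapped between groups, and they were chosen after their values were seen. Without the cells holding markers of other cell types Nfkb1 (edgeR adjusted p 0.00505) and Plxnc1 (0.0330) passed.

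Among cytokine receptor and signalling genes the smallest p was that of Socs3, a feedback inhibitor of these signals. Socs3 stood at 39.4, 51.1 and 47.5 CPM in the p16-DTR-labelled libraries and at 111, 108 and 87.8 CPM in the controls. Every p16-DTR-labelled library was below every control (log2 fold change -1.16, SE 0.15, adjusted p 0.0897), and DESeq2 called it. Of 25 cytokine receptor and signalling genes, 12 had a log2 fold change above 0 (median -0.01), 3 were higher and 6 lower without overlap, against 8.39% and 6.57% of all genes, and none passed in edgeR. Ifngr1, the most abundant of them, was at 1567, 1625 and 1471 CPM against 1474, 1433 and 1542 CPM and overlapped. Il12rb2, a chain of the IL-12 receptor, overlapped too (-0.01). Stat5a, which carries IL-2 and IL-15 signals, was at 34.1, 53.5 and 36.4 CPM against 72.9, 66.2 and 61.8 CPM, without overlap. Of 9 secreted cytokine and chemokine genes tested, 4 had a log2 fold change above 0 (median -0.05). Ccl5 was at 11122, 9011 and 12186 CPM against 7662, 8995 and 7673 CPM, without overlap (0.38). Tgfb1 was at 191, 202 and 155 CPM against 252, 232 and 262 CPM, lower in every p16-DTR-labelled library (-0.47). Ifng, the main NK cytokine, was at 124, 133 and 152 CPM against 93.1, 185 and 139 CPM and overlapped.

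Trafficking receptors read in both directions, with 5 of 18 higher and 4 lower in every p16-DTR-labelled library than in every control, against 8.39% and 6.57% of all genes. None passed in edgeR, and DESeq2 called S1pr5, Itga4 and Ccr2 among others. Ccr2 stood at 114, 147 and 126 CPM in the p16-DTR-labelled libraries and at 194, 185 and 291 CPM in the controls (log2 fold change -0.83, SE 0.18, adjusted p 0.230). Ccr2, a receptor for inflammatory chemokines, read lower without overlap and passed without the cells holding markers of other cell types. Itga4, the integrin chain that binds VCAM-1, read higher without overlap, at 1265, 1315 and 1399.9 CPM against 995, 785 and 1054 CPM (0.46). Of 12 ILC1 and residence genes tested, 8 had a log2 fold change above 0 (median 0.39), and 2 were higher without overlap, against 8.39% of all genes: Cxcr6 and Rgs1. DESeq2 called both, as did edgeR with no filter on low counts. In the main fit, with the filter, edgeR called none of the list. With Cd3d and Trac at 0 edgeR called Cxcr6 (adjusted p 0.0476). Without the cells holding markers of other cell types it called Inpp4b (adjusted p 0.0191). Cxcr6 stood at 20.1, 20.2 and 27.9 CPM in the p16-DTR-labelled libraries and at 2.60, 5.68 and 7.76 CPM in the controls (log2 fold change 1.96, SE 0.36, adjusted p 0.207). Rgs1, which damps chemokine signals, was at 607, 527 and 745 CPM against 369, 358 and 477 CPM. Itga1 itself was at 66.9, 31.9 and 96.7 CPM against 20.2, 49.2 and 25.0 CPM and overlapped. The median of this list ranged from -0.0435 to 0.629 over 18 other settings. It was below 0 only in Itgam-only cells, with 8 genes tested, and the next lowest was 0.111 (without control replicate 2). Cd200r2, a relative of the CD200 receptor, was under the filter, with 97 UMIs in the p16-DTR-labelled libraries and 7 in the controls, or 13.5, 2.81 and 17.004 CPM against 0.651, 0 and 1.502 CPM. With no filter edgeR called Cd200r2 (log2 fold change 3.44, adjusted p 0.0459). It lay in Itga1-detected cells, at 32.9 ± 15.9 CPM there in the p16-DTR-labelled libraries and 0.984 ± 1.70 CPM in the controls. In the rest it averaged 2.03 and 0.676 CPM.

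A list of glucocorticoid-responsive genes, with the receptor gene Nr3c1 itself, gave 4 of 9 higher in every p16-DTR-labelled library (Fkbp5, Tsc22d3, Nr3c1 and Ddit4), against 8.39% of all genes, with a median of 0.25 and none passing in edgeR. Fkbp5, a chaperone that feeds back on the glucocorticoid receptor, was at 179, 139.7 and 210.2 CPM against 76.1, 106 and 98.4 CPM (log2 fold change 0.90, SE 0.18, adjusted p 0.209), was called by DESeq2 (adjusted p 0.0017), and passed edgeR without the cells holding markers of other cell types. Of 17 interferon-response genes, none separated the groups, against 8.39% higher and 6.57% lower without overlap among all genes, with a median of 0.03. Immediate early and heat shock genes had a median of 0.00, and 1 of 19 tested was lower without overlap, against 6.57% of all genes. It was Nr4a1, at 302, 243 and 266 CPM against 339, 377 and 349 CPM. Among cell cycle genes, Mki67, a protein of dividing cells, was at 78.8, 18.8 and 254 CPM against 13.7, 31.2 and 114 CPM, with replicate 3 highest in both groups, and its log2 fold change ranged from -0.24 to 2.44 when 1 library was left out. The 2 cells with the most Mki67 held 95.8%, 75.0% and 34.6% of its UMIs in the p16-DTR-labelled libraries and 90.5%, 87.9% and 71.4% in the controls. Of 19 cell cycle genes none separated the groups, against 8.39% higher and 6.57% lower without overlap among all genes. Of these 19, 15 had a log2 fold change above 0 (median 0.27), against 49.1% of all genes. The list may rest on few cells, so its genes need not be separate observations. Cdkn1a (p21), the p53-driven inhibitor, was at 49.7, 37.5 and 58.9 CPM against 75.5, 37.8 and 48.8 CPM, and Cdkn1b (p27) at 160.5, 149.6 and 155 CPM against 153, 159 and 158 CPM, both overlapping. Of 16 p53-target and BCL2-family genes, 15 had a log2 fold change above 0 (median 0.18), against 49.1% of all genes, and 4 were higher without overlap, against 8.39%. Trp53inp1, a p53-induced autophagy gene, was at 132, 109 and 139 CPM against 99.6, 76.6 and 81.6 CPM (0.54). Bcl2 had a log2 fold change of 0.19.

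Cdkn2a (ENSMUSG00000044303, chromosome 4, 89274471 to 89294653 in GRCm38), which encodes p16INK4a and p19ARF, was found in NK cells of the p16-DTR-labelled libraries and in none of the controls. The first held 17, 31 and 34 UMIs (6.98, 14.5 and 9.97 CPM) and the controls 0. Pooled over libraries, the level was at least 22.6-fold higher, against a floor of 3 UMIs over the control group. The fitted log2 fold change had an adjusted p of 0.135 (edgeR), and DESeq2 called the gene (adjusted p 0.000594). So did edgeR with no filter on low counts (adjusted p 0.00275) and in cells with Cd3d and Trac also at 0 (adjusted p 0.0431). Gene counts do not separate the p16 transcript from the p19 transcript. The UMIs lay in 14, 17 and 29 cells, with at most 3 UMIs in a cell. After each cell was thinned to 3000 UMIs, which left out 16 and 6 shallower cells, 1.23%, 2.68% and 4.48% of NK cells held a Cdkn2a UMI in the p16-DTR-labelled libraries (2 of 162, 4 of 149 and 10 of 223). The 95% Wilson intervals run from 0.339% to 4.39%, 1.05% to 6.70% and 2.45% to 8.06%, and cover counting error only. In the controls 0 of 96, 0 of 61 and 0 of 226 cells did, which allows a share of up to 3.13%, 4.92% and 1.33% in each. All 3 limits lie above the 1.23% of p16-DTR replicate 1, so its difference from any single control was not detectable at this depth. Pooled, the controls held 0 of 383, which allows up to 0.783%. That lies below 1.23% and above the lower Wilson limit of this replicate (0.339%). The groups do not overlap (exact two-sided permutation p 0.1, adjusted over 6 genes 0.3; 0.1 is the smallest p that 3 against 3 can give). Without thinning, 60 of 550 cells (10.9%) held one, against 0 of 389. NK cells were not alone in this. Pooled thinned shares were 5.04% against 0.782% in CD8 T cells, 3.82% against 0.079% in B cells and 0.485% against 0% in neutrophils. Median depth before thinning was 9116.5 to 11262 UMIs in neutrophils and 12868 to 15997 UMIs in NK cells. Without the cells holding markers of other cell types, the pooled share in NK cells was 1.401% (5 of 357). The controls held 0 of 64, 0 of 31 and 0 of 102, which allows up to 4.69%, 9.68% and 2.94%. There p16-DTR replicate 1 held none in 113 cells, so the groups overlapped (exact permutation p 0.4). Within stages, Itgam-only cells averaged 8.97 ± 3.60 CPM and Cd27-only cells 12.6 ± 16.9 CPM in the p16-DTR-labelled libraries, a difference within their spread. The share of these UMIs that free RNA could give was not tested.

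**Figure D4:**
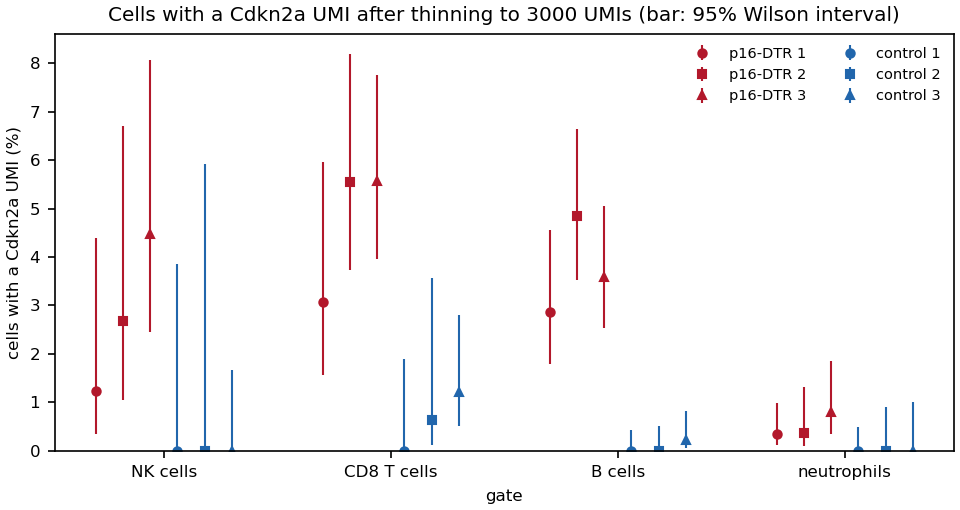
Percent of cells with a Cdkn2a UMI after thinning to 3000 UMIs, by gate and library, with 95% Wilson intervals that cover counting error only. In NK cells the 3 p16-DTR-labelled libraries lie at 1.23% to 4.48% and the 3 controls at 0%, and CD8 T and B cells show higher shares in the p16-DTR-labelled libraries too.

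Shares of NK cells with other marker UMIs were compared in the same thinned cells. Cd27 was detected in 10.5%, 9.40% and 8.07% of NK cells in the p16-DTR-labelled libraries and in 13.5%, 14.8% and 23.9% in the controls. Every p16-DTR-labelled library was below every control (9.32% ± 1.21 against 17.4% ± 5.66, SD, n = 3; exact permutation p 0.1, adjusted 0.3). Without thinning the shares were 25.3% and 39.6%. After thinning to 5000 UMIs (16.3% and 23.5%) and without the cells holding markers of other cell types (6.74% and 12.01%) the groups overlapped. The shares with Itgam (40.7% against 42.3%), Klrg1 (42.8% against 37.9%), Itga1 (12.9% against 9.11%) and Mki67 (3.57% against 2.97%) overlapped between groups. The Klrg1 share no longer overlapped without control replicate 2 (42.8% against 33.0%) or without cells above 3 times the median UMI count (41.9% against 35.2%; exact permutation p 0.1 in both). The Itgam share did not overlap without thinning, with a difference of -5.93 percentage points.

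NK cells made up 1.19%, 1.05% and 1.504% of quality-passing barcodes in the p16-DTR-labelled libraries and 0.615%, 0.482% and 1.46% in the controls. The 95% Wilson interval of the lowest runs from 0.375% to 0.618% and that of the highest from 1.32% to 1.71%. The means were 1.25% ± 0.234 and 0.853% ± 0.533 (SD, n = 3), and the groups overlapped through control replicate 3 (exact two-sided permutation p 0.3). Without control replicate 3 the controls averaged 0.548% and no longer overlapped (exact permutation p 0.1, the smallest possible). The groups did not overlap without the cells holding markers of other cell types either (0.847% against 0.443%, exact permutation p 0.1). That rule left out 28.7%, 27.9% and 37.8% of NK cells in the p16-DTR-labelled libraries and 31.7%, 49.2% and 54.6% in the controls. The denominator stayed at all quality-passing barcodes, so this share also moves with the cells left out. The part of the rule in it was not tested. Of barcodes with a UMI of Ptprc (CD45), NK cells made up 3.01% against 2.53% (exact permutation p 0.6). CD45-positive cells were sorted and mixed at a fixed number, so these shares do not count NK cells in the lung.

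Whether the group difference itself differed between NK and CD8 T cells was tested by an interaction in edgeR, with the library as a block. Of 11996 genes, 1 passed (0.00834%), and it was Gzma (ENSMUSG00000023132, chromosome 13, 113093825 to 113100981 in GRCm38). In CD8 T cells Gzma was at 84.9, 89.9 and 105 CPM in the p16-DTR-labelled libraries and 217, 220.4 and 179 CPM in the controls. All 3 were below all controls, and Gzma fell there (log2 fold change -1.12, SE 0.12, edgeR adjusted p 0.0485; 11 of 12329 genes passed in CD8 T cells, 0.0892%). In NK cells the log2 fold change was 0.30, and the difference of the 2 effects was 1.44 (SE 0.12, adjusted p 0.0195). The difference kept its size without any 1 library (1.35 to 1.52), and its call was kept without p16-DTR replicate 3 and lost without each of the other 5 libraries, with adjusted p up to 0.296 (without control replicate 2). Without NK and CD8 T cells holding markers of other cell types, 6 genes passed, Gzma, Zeb2, Emb and Inpp4b among them, and the Gzma difference was 2.06. In the full set Zeb2 (0.86), Emb (-0.91) and Ctla2a (-1.24) did not pass. Cdkn2a rose in CD8 T cells, at 15.3, 21.4 and 17.04 CPM against 0.688, 2.89 and 2.37 CPM (log2 fold change 3.18, edgeR adjusted p 0.0485).

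**Figure D5:**
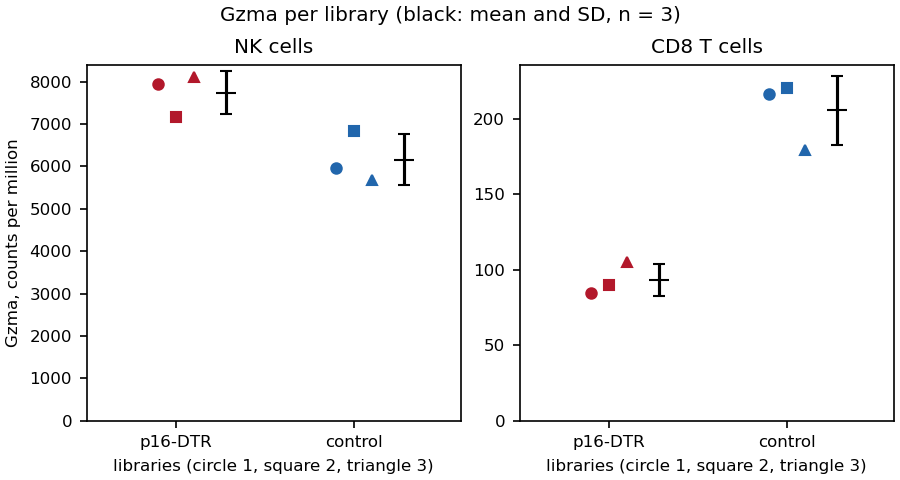
Gzma CPM per library in summed NK cells (left) and CD8 T cells (right), on separate linear axes from 0, with the mean and SD of 3 libraries in black. In NK cells the p16-DTR-labelled libraries lie above the controls, and in CD8 T cells, at a far lower level, they lie below.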

How the data were processed

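The values in the 6 deposited lung matrices are raw UMI counts, not normalized, which the authors made with Cell Ranger 8.0.1 (per the file headers). A build, mm10, is named without its role, per the submitters' processing notes; its annotation and the cell-calling settings are not given in the sources used here. Each matrix holds 31054 features, of which 30934 matched GENCODE M21 (GRCm38), used for positions. Promoter sequences came from RefSeq on GRCm38.p6.

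NK cells were gated on raw UMIs as described, with the same quality limits for CD8 T cells (Cd8a and Cd3e or Cd3g, no Ncr1 or Klrb1c), B cells (Cd79a and Ms4a1) and neutrophils (at least 10 UMIs of S100a8 and of S100a9, and Csf3r). No doublet caller was run; instead, cells with markers of other cell types, and cells above 3 times the median UMI count, were left out as alternatives. Counts were summed per library and gate, and CPM are these sums per 1000000 UMIs. Genes were tested with the edgeR 4.0.16 quasi-likelihood test (R 4.3.3, filterByExpr, TMM, group alone), adjusted by Benjamini-Hochberg over all genes and called at 0.05, with SE approximated from the F statistic. The 6 gate genes were kept out of the counts. Replicates are separate mice, and counts of replicates differed beyond sampling noise. The interaction with CD8 T cells held the library as a block. Shares were computed after thinning to 3000 UMIs per cell and compared by an exact two-sided permutation test. Intervals are 95% Wilson intervals, and floors use 3 counts; both cover counting error only. DESeq2 1.42.0, RLE scaling, no scaling, no filter, each library left out, stricter cell limits and gates and equal cell numbers were alternatives. Cells were gated and thinned, and permutation tests run, with numpy 2.4.6 and pandas 2.3.3 in Python 3.11.15. Wilson intervals came from scipy 1.17.1 and plots from matplotlib 3.10.9.

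Tested on simulated counts for the NK comparison (10301 genes), 44.8% of 2-fold and 95.6% of 4-fold changes were recovered. For the interaction (12006 genes), 45% of changed genes were recovered. The simulation gave every gene the same relative spread between replicates, and drew changed genes from those above a count limit. Real genes differ in spread, so these shares need not hold for the real counts. Named by rule were Ncr1, Klrb1c, Gzma, Prf1, Cdkn2a, Cdkn1a, tdTomato, called genes, and the most abundant and the smallest-p member of each list; further members are described after their values were seen. The members and lists were chosen with earlier results of these data known. Some list members count in the lists but are not reported here by name.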

Additional observations from a re-analysis of the deposited data

Results flagged for a closer look

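Gzma, the granzyme A gene, differed between NK and CD8 T cells in its group difference: the log2 fold change in NK cells minus that in CD8 T cells was 1.44 (edgeR quasi-likelihood test of the interaction, SE 0.12, adjusted p 0.0195). Gzma was higher in 3 of 3 p16-DTR-labelled libraries than in every control in NK cells, and lower in 3 of 3 in CD8 T cells. In NK cells alone Gzma did not pass in edgeR. The interaction call was kept without p16-DTR replicate 3 and lost without each other library.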

How the results depend on the processing

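The count of 1 gene in NK cells was 0 with RLE scaling, with no scaling, with at least 2 UMIs of both gate genes, without cells above 3 times the median UMI count, with equal cell numbers, and in Itgam-only cells (chosen after seeing the data). It was 73 with DESeq2 (23 higher), 61 with no filter (22 higher), 30 with Cd3d and Trac at 0 (18 higher), and 32 without cells holding markers of other cells (10 higher). It ranged from 0 to 1 with each library left out. The interaction count of 1 gene was 63 with no filter, 2 with Cd3d and Trac at 0, 6 without cells holding markers of other cells, and 0 to 1 with each library left out.

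The labels state no pairing of mice by replicate number. Deviations of same-numbered libraries correlated at 0.355, 0.127 and -0.0214. For p16-DTR replicates 1 and 2 the same-numbered control correlated best. For p16-DTR replicate 3 it was control replicate 2 (0.174). With 3 libraries a group, these correlations cannot decide whether same-numbered libraries share a batch. With a replicate block the count was 0.

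Some thinned shares turned sign. UMIs were drawn anew in each setting, except with 1 library left out, where the main draw was used again. The Itgam difference (-1.59 percentage points) was 3.73 at 5% mitochondrial UMIs, 3.94 with 2 UMIs of both gate genes, 3.72 with Cd3d and Trac at 0, 0.93 without cells holding other markers, and -4.09 to 1.86 with each library left out. The Klrg1 difference (4.88) was -1.75 with 2 UMIs of both gate genes, 6.63 without cells of high UMI count, and 2.32 to 9.72 with each library left out. The Mki67 difference (0.602) was -0.349 with Cd3d and Trac at 0, -0.407 without cells of high UMI count, and -0.753 to 1.71 with each library left out.

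Log2 fold changes of some named genes also turned. Prf1 was -0.0202 in Itgam-only cells. Cdkn1a was 0.0268 with Cd3d and Trac at 0, 0.20 with equal cells and -0.33 to 0.12 with each library left out. Tyrobp was -0.0319 without cells holding other markers, -0.0207 without cells of high UMI count, and -0.0417 to 0.0739 with each library left out. Klra8 was 0.0688 without cells holding other markers, 0.18 with equal cells and -0.149 to 0.0541 with each library left out. Irf8 was 0.13 and Irf1 0.0246 with equal cells. The cause was not tested. Among all alternative values for the comparisons themselves, 89 kept direction and call, 23 moved and 10 turned sign. With 61 NK cells in the smallest library, low genes are limited by depth.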

Other observations

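Values of single cells stood out in genes of other cell types. In control replicate 2 the 2 cells with the most Dcn, a fibroblast gene, held 99.1% of its UMIs, and in p16-DTR replicate 3 the 2 cells with the most C1qa, a macrophage gene, held 98.4%. The tdTomato feature had 2 UMIs in NK cells of the p16-DTR-labelled libraries and 0 in the controls. Myb, a factor of progenitor cells, stood at 36.1, 35.2 and 35.2 CPM in the p16-DTR-labelled libraries and at 65.1, 99.3 and 96.6 CPM in the controls (edgeR log2 fold change -1.32, adjusted p 0.0912), and was called in 5 of 18 alternatives: with DESeq2, with no filter, with Cd3d and Trac at 0, without cells holding markers of other cells (adjusted p 0.00505) and without control replicate 1. Egr1, an immediate early gene, stood at 85.4, 56.7 and 116 CPM against 279, 250.1 and 79.1 CPM, with control replicate 3 among the p16-DTR-labelled values.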
